A study of Mus musculus with 8 samples.

Results

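The 10 genes described here encode collagen hydroxylases and collagen chaperones of the endoplasmic reticulum, in cultured mouse brain pericytes treated with TGF-β1 or vehicle. They were taken by symbol, and all 10 were found among the 54532 gene identifiers of the count files. They fall by role into the α subunits of collagen prolyl 4-hydroxylase (*P4ha1*, *P4ha2* and *P4ha3*), its β subunit (*P4hb*), the lysyl hydroxylases (*Plod1*, *Plod2* and *Plod3*), the collagen chaperone HSP47 (*Serpinh1*), and a prolyl 3-hydroxylase with a partner protein of its family (*P3h2* and *Crtap*). RNA from 8 WT brain pericyte cultures was sequenced, 4 after 48 h with TGF-β1 at 5 μg/mL (cultures 5 to 8) and 4 with vehicle (cultures 1 to 4). All were primary cultures, which the study's methods describe as papain digests of mouse brain, plated on collagen I and expanded over several passages, so the cells had left the vessel wall and had grown in serum before treatment. The methods speak of 4 independent isolates given both treatments, and the labels do not say which vehicle and TGF-β1 cultures share an isolate. The p-values below therefore measure the spread between the 8 cultures without any pairing, and they take each culture as independent.

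Collagen chains are modified while they enter the endoplasmic reticulum. Prolyl 4-hydroxylase converts proline to 4-hydroxyproline, which keeps the triple helix stable at body temperature, and lysyl hydroxylases make the hydroxylysine that carries sugars and forms cross-links between collagen molecules. Both kinds of enzyme, like the prolyl 3-hydroxylases, need 2-oxoglutarate, iron and oxygen, and HSP47 binds the folded helix until it leaves for the Golgi. Pericytes sit in the basement membrane of small vessels and can produce fibrillar collagen, and TGF-β is a well known inducer of collagen synthesis in mesenchymal cells.

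The libraries were of even depth, with 45255235 to 47651397 counts per culture. The first principal component held 52.4% of the variance and separated the treatments, and none of the cultures stood apart from its group on it. On the second, with 8.66% of the variance, vehicle cultures 1 and 2 (17 and 14.2) lay apart from vehicle cultures 3 and 4 (-15.5 and -18.7), while the TGF-β1 cultures ran from -19.6 to 12.3. The labels give no batch, and what this split reflects was not tested. The pericyte label was checked against 10 markers, of which 7 had at least 3 counts in every culture. *Pdgfrb* averaged 202 CPM with vehicle and 291 CPM with TGF-β1, *Cspg4* 82.9 and 169 CPM, and *Notch3* 88.5 and 85.9 CPM, while *Rgs5* was at 8.62 and 2.13 CPM, *Des* at 0.685 and 0.623 CPM, and *Kcnj8*, *Abcc9* and *Vtn* averaged at most 0.114 CPM. CPM here are counts scaled to library size and by the trimmed mean of M values. The summed pericyte list went from 414 to 434 CPM in the vehicle cultures to 569 to 591 CPM with TGF-β1, through *Pdgfrb* and *Cspg4*. *Anpep* and *Rgs5* of this list were lower (*Anpep* 40.5 and 30.1 CPM), and the median log2 fold change of its 7 tested genes was -0.042. The summed fibroblast list, 6 of 8 markers with 3 counts in every culture, went from 1826 to 1910.4 CPM to 2614 to 2746 CPM, most of it *Col1a1*. Of the other fibroblast markers, *Pdgfra* was at 62.5 and 63 CPM, *Dcn* at 52.1 and 46.7 CPM and *Ogn* at 173 and 49.6 CPM, and *Lum* and *Slc22a6* were near 0. The endothelial list (5 of 8 markers) summed to 389 to 404 CPM and 373 to 399 CPM, nearly all of it *Cdh5*, with *Cldn5*, *Erg* and *Tie1* near 0 and *Tek* lower (2.71 and 1.99 CPM). The astrocyte list (5 of 6 markers, with *Aqp4* at 0 in every vehicle culture) summed to 243 to 256 CPM and 223 to 235 CPM. Within it *Gja1*, the most abundant, was not called (195 and 189.7 CPM), *Slc1a2* was lower (38.5 and 16.3 CPM), and *Slc1a3* (9.74 and 15.2 CPM) and *Aldh1l1* (5.16 and 8.79 CPM) were higher. The oligodendrocyte list (4 of 6, with *Olig2* and *Mag* near 0) summed to 25.2 to 26.9 CPM and 19.9 to 23.3 CPM, with *Cnp* lower (21.5 and 15.9 CPM) and *Mbp* higher (1.86 and 2.62 CPM). The macrophage and microglia list (7 of 8, mostly *Tmem119*, with *Ptprc* under 1 CPM) summed to 109 to 114 CPM and 109 to 111 CPM, and *Csf1r*, its 1 called gene, was higher (1.5 and 2.5 CPM). The part of the makeup of the cultures in the results below was not tested, and in bulk RNA a change in the share of a cell type and a change in RNA per cell cannot be told apart.

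To ask whether TGF-β1 altered the collagen-modifying machinery, each gene was compared between the treatments. Of the 10 genes, 7 were higher in the TGF-β1 cultures (*P4ha1*, *P4ha3*, *P4hb*, *Plod1*, *Plod2*, *Plod3* and *Serpinh1*), 2 were lower (*P4ha2* and *P3h2*) and *Crtap* did not pass the test (edgeR quasi-likelihood test, Benjamini-Hochberg adjusted p under 0.05). All 10 passed the filter on low counts. The same test called 41.3% of the 22544 genes tested, 20.9% of them as higher and 20.3% as lower, so a called gene is common in this comparison. In 8 of the 10 genes the groups did not overlap, with TGF-β1 above vehicle in 7 and below it in 1, against 37.9% of all genes tested in either direction, 19.1% above and 18.8% below. The median log2 fold change of the 10 genes was 0.31, beside -0.011 for all genes tested. The shares of all genes cover every level of expression, and shares among genes as abundant as these were not computed. The 10 genes were also chosen with earlier results of these data known. The members were not alike in size of change, which ran from a log2 fold change of -1.29 for *P3h2* to 1.09 for *Plod2*.

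**Figure D1:**
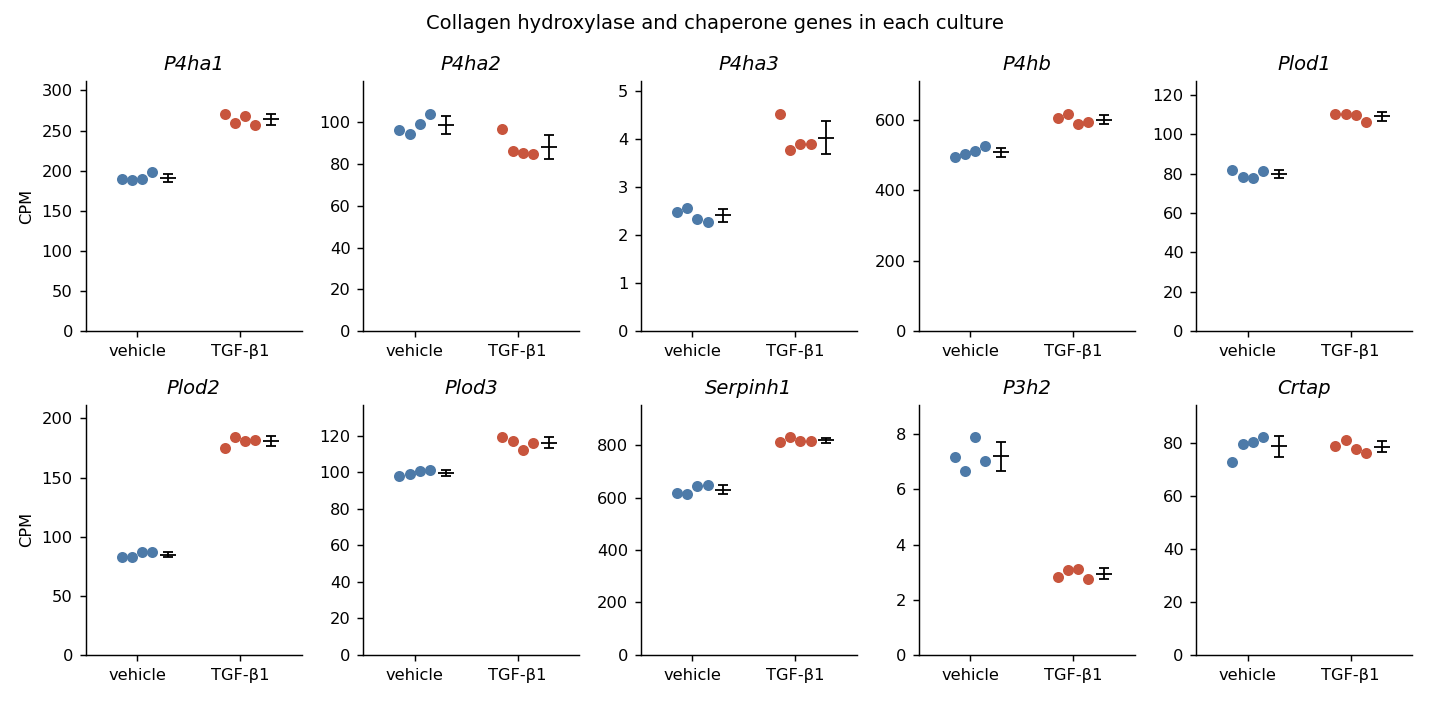
Level of each of the 10 genes in CPM (y axis, starting at 0, with its own scale in each panel) in the 4 vehicle (blue) and 4 TGF-β1 (red) cultures, each point 1 culture in label order, with the mean and SD of each group beside the points. The groups are apart for 8 genes and overlap for *P4ha2* and *Crtap*.

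Prolyl 4-hydroxylase is built from catalytic α subunits and the β subunit. *P4ha1* encodes the α subunit that dominates in most cell types. It had 189, 188, 189.8 and 198 CPM in the vehicle cultures and 271, 259, 268 and 257 CPM in the TGF-β1 cultures. Every treated culture was above every control, and the mean went from 191 ± 4.54 to 264 ± 6.78 CPM (SD, n = 4 each), a log2 fold change of 0.47 (SE 0.025, 95% interval 0.42 to 0.52, edgeR adjusted p = 3.1e-20). *P4ha2* encodes an α subunit that is prominent in cartilage and some other tissues, and it moved the other way. It had 96.4, 94.4, 99.1 and 104 CPM with vehicle and 96.6, 86.3, 85.1 and 84.5 CPM with TGF-β1. Culture 5 lay within the vehicle range and the other treated cultures below it. Its mean fell from 98.6 ± 4.35 to 88.1 ± 5.69 CPM (SD, n = 4), with a log2 fold change of -0.16 (SE 0.038, 95% interval -0.24 to -0.084, edgeR adjusted p = 0.0011). *P4ha3*, an α subunit of low abundance in most tissues, had 2.47, 2.57, 2.34 and 2.27 CPM with vehicle and 4.52, 3.77, 3.88 and 3.89 CPM with TGF-β1. These levels rest on 105 to 117 counts per vehicle culture and 173 to 207 counts per TGF-β1 culture, so its estimate is wider than the others. The groups did not overlap, and the log2 fold change was 0.73 (SE 0.12, 95% interval 0.49 to 0.98, edgeR adjusted p = 1.86e-06).

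The promoters of these α subunit genes are shown because the genes share a function and moved differently. Each is the RefSeq window on GRCm38.p6 from 250 bases before to 50 bases after the start site, 5′ to 3′ on the strand of the gene. In lower case, capitals mark ACGTG or its reverse complement CACGT, the core of the hypoxia response element, and CAGAC or GTCTG, a SMAD-binding element.
P4ha1, chr10:59323046-59323345, plus strand: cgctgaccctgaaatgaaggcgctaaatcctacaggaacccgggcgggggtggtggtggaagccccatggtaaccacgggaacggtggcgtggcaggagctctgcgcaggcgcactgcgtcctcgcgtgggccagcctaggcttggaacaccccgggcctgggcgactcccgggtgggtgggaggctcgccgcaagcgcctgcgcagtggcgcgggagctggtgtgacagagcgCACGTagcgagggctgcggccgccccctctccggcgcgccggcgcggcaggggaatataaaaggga
P4ha2, chr11:54100674-54100973, plus strand: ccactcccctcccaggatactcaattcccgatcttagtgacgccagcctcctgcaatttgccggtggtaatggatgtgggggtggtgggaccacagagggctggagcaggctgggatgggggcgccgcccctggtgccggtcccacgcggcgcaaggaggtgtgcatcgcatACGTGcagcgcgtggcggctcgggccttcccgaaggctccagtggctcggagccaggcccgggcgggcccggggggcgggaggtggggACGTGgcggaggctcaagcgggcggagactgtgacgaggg
P4ha3, chr7:100285270-100285569, plus strand: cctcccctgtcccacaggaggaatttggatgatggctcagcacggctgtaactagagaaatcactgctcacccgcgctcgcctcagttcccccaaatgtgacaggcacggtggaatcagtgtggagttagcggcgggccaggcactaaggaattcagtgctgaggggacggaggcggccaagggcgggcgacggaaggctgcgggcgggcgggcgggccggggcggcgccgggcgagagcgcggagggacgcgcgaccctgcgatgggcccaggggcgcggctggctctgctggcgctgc
The *P4ha1* window holds the hypoxia element core once, beginning at position -16 from the start site. The *P4ha2* window holds it at -78 and at 11, and the RefSeq start site lies inside the gene body that GENCODE annotates for *P4ha2*. The *P4ha3* window has no match to ACGTG or CAGAC on either strand. It holds 5 matches to the GC box GGGCGG, of which those at -48, -44 and -40 overlap in a repeat. Of all 32851 mouse promoter windows in the table, 19.6% held ACGTG, 49.6% held CAGAC and 35.7% held GGGCGG. Of the 8 genes of the group with a window (all but *Plod2* and *P3h2*), 5 held ACGTG, 4 held CAGAC and 7 held GGGCGG, searched on both strands. In the *P4hb* window a CAGAC and an ACGTG overlap. A match is a string of letters and no measure of binding. The GC contents of the *P4ha1*, *P4ha2* and *P4ha3* windows were 70.3%, 70.3% and 69.3%, against a median of 52.7% over all windows.

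Within the α subunit family the balance moved towards *P4ha1*. Counts were divided by exon length to compare genes. This length joins the exons of all annotated transcripts of a gene, and which of them the cells made was not measured. Shares and levels set between genes depend on it. On this scale *P4ha1* made up 73.7 ± 0.35% of the family in the vehicle cultures and 80.7 ± 0.78% in the TGF-β1 cultures (SD, n = 4). The share of *P4ha2* went from 25.1 ± 0.445% to 17.7 ± 0.698%, and the lowest vehicle value, 24.5%, was above the highest TGF-β1 value, 18.7%. The share of *P4ha3* stayed small, at 1.22 ± 0.0965% and 1.61 ± 0.0925%, though the groups were apart. Each ratio within the family was compared by an exact two-sided permutation test over the cultures. The ratio of *P4ha2* to *P4ha1* went from 0.34 ± 0.00765 to 0.22 ± 0.0108, a difference of -0.63 on the log2 scale. The ratio of *P4ha3* to *P4ha1* went from 0.0166 ± 0.00123 to 0.02 ± 0.00133 (log2 difference 0.27), and that of *P4ha3* to *P4ha2* from 0.0488 ± 0.00471 to 0.0906 ± 0.00268 (log2 difference 0.90). In each of these pairs the groups did not overlap, so the genes of the family did not change by the same amount. How often the ratio of 2 other genes separates the groups was not computed. Of single genes tested, 37.9% had groups apart. For all 6 pairs tested, these and the lysyl hydroxylase pairs, the exact permutation p was 0.0286 and 0.0286 after adjustment over the 6 pairs, the smallest that 4 against 4 cultures allow.

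*P4hb* encodes protein disulfide isomerase, which also serves as the β subunit that keeps the α subunits soluble and in the endoplasmic reticulum. It had 493, 504, 512 and 524 CPM with vehicle and 604, 617, 587 and 594 CPM with TGF-β1. The groups were apart, but the rise was smaller than that of *P4ha1*, from 508 ± 12.7 to 600.4 ± 13.2 CPM (SD, n = 4), with a log2 fold change of 0.24 (SE 0.023, 95% interval 0.19 to 0.29, edgeR adjusted p = 3.75e-12). Per kilobase of exon, *P4hb* stood at 2.82 ± 0.0399 times the summed α subunits with vehicle (2.78 to 2.86) and 2.64 ± 0.104 times with TGF-β1 (2.55 to 2.77). On this scale the β subunit transcript was thus in excess of the α subunit transcripts in every culture.

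The lysyl hydroxylases all rose, and by different amounts. *Plod2* encodes the enzyme that hydroxylates lysines in the telopeptides at the ends of the collagen molecule, the residues that form stable pyridinoline cross-links. It had 82.4, 83.2, 86.9 and 87 CPM in the vehicle cultures and 175, 184, 181 and 182 CPM in the TGF-β1 cultures. No culture fell between the groups, and the mean went from 84.9 ± 2.41 to 181 ± 3.91 CPM (SD, n = 4), 2.13-fold, with a log2 fold change of 1.09 (SE 0.027, 95% interval 1.04 to 1.14, edgeR adjusted p = 5.2e-32). This was the largest rise among the 10 genes and lay at the 97.8th percentile of all log2 fold changes. *Plod1* encodes the enzyme for lysines in the helix. It had 81.7, 78.3, 77.9 and 81.1 CPM with vehicle and 110.4, 110.2, 109.6 and 106 CPM with TGF-β1. The log2 fold change was 0.45 (SE 0.028, 95% interval 0.39 to 0.51, edgeR adjusted p = 6.65e-18), again with the groups apart. *Plod3* encodes an enzyme that both hydroxylates lysine and adds sugars to it. It had 97.6, 99.2, 100.4 and 101 CPM with vehicle and 119, 117, 112 and 116 CPM with TGF-β1. Its rise was the smallest of the family and of all called members that rose, with a log2 fold change of 0.22 (SE 0.027, 95% interval 0.17 to 0.28, edgeR adjusted p = 4.83e-09).

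On the scale per kilobase of exon, *Plod3* led the family with vehicle and *Plod2* led it with TGF-β1. In CPM, without this division, *Plod3* (99.5) also led with vehicle and *Plod2* (181) with TGF-β1. The share of *Plod2* went from 31.8 ± 0.493% to 44.5 ± 0.824% (SD, n = 4), that of *Plod3* from 44.4 ± 0.318% to 34.1 ± 0.747%, and that of *Plod1* from 23.8 ± 0.654% to 21.4 ± 0.44%. The ratio of *Plod2* to *Plod1* was 1.26 to 1.4 in the vehicle cultures and 1.99 to 2.16 in the TGF-β1 cultures (log2 difference 0.64). The ratio of *Plod3* to *Plod2* went from 1.38 to 1.42 down to 0.738 to 0.809 (log2 difference -0.87), which is the reversal of their order in every culture. The ratio of *Plod3* to *Plod1* moved least, from 1.87 ± 0.0606 to 1.59 ± 0.0504 (log2 difference -0.23). The test of these 3 pairs is the one given above for all 6.

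**Figure D2:**
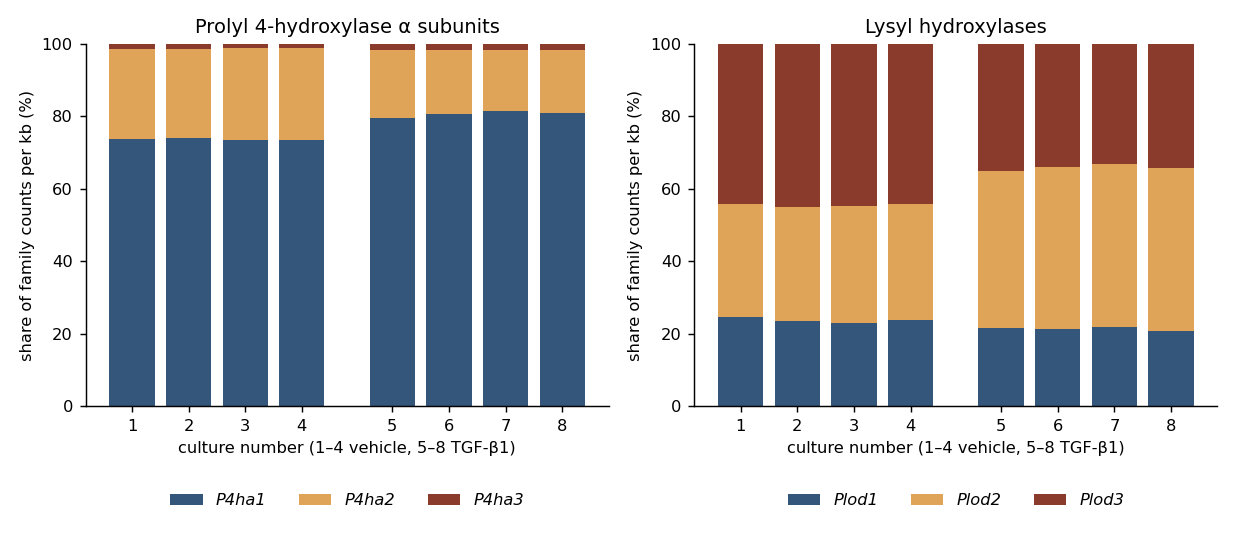
Share of each gene in the summed counts per kilobase of its family (y axis, %) in each culture (x axis, 1 to 4 vehicle and 5 to 8 TGF-β1), for the prolyl 4-hydroxylase α subunits (left) and the lysyl hydroxylases (right), each bar 1 culture. *P4ha1* goes from 73.4 to 74.1% to 79.6 to 81.4% of its family, and *Plod2* from 31.2 to 32.3% to 43.3 to 45% of its own.

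*Serpinh1* encodes HSP47, a chaperone of the serpin family that is dedicated to procollagen. It was the most abundant of the 10 genes, with 618, 613, 644 and 647 CPM in the vehicle cultures and 812, 829.9, 815 and 815 CPM in the TGF-β1 cultures. The treated cultures lay close together and above all controls. The mean rose from 630.3 ± 17.3 to 818 ± 8.19 CPM (SD, n = 4), a log2 fold change of 0.38 (SE 0.022, 95% interval 0.33 to 0.42, edgeR adjusted p = 8.65e-19). *Serpinh1* lies on chromosome 7 (GRCm38 chr7:99345376-99353239, minus strand), as does *P4ha3* (chr7:100285520-100319699, plus strand), with 932280 bases between the gene bodies. Its RefSeq promoter window is shown, with the same capitals, as that of the most abundant gene of the group. It holds GTCTG at -212 and CACGT at -171.
Serpinh1, chr7:99353190-99353489, minus strand: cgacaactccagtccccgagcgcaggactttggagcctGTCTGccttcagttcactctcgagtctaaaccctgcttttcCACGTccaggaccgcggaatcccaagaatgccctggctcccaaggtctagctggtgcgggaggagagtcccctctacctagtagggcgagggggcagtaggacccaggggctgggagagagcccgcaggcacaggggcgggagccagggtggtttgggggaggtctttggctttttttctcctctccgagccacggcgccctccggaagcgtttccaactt
Neither the endoplasmic reticulum stress element, held by 0.119% of all windows, nor a heat shock element pattern, held by 0.603%, was matched in any of the 8 windows of the group. This refers to the 300 bases only.

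The prolyl 3-hydroxylase family gave the largest fall. *P3h2* encodes an enzyme that makes 3-hydroxyproline, with basement membrane type IV collagen as a known substrate. It had 7.18, 6.67, 7.89 and 7.04 CPM with vehicle and 2.84, 3.09, 3.12 and 2.74 CPM with TGF-β1, from 304 to 375 and 129 to 143 counts per culture. All treated cultures lay well below all controls. Its mean fell from 7.2 ± 0.512 to 2.95 ± 0.186 CPM (SD, n = 4), to 0.41 of the vehicle level, with a log2 fold change of -1.29 (SE 0.0996, 95% interval -1.49 to -1.09, edgeR adjusted p = 7.44e-15). That change was at percentile 1.43 of all genes tested. *Crtap* encodes cartilage-associated protein, which has no catalytic activity of its own and forms a complex with prolyl 3-hydroxylase 1 and cyclophilin B. It had 73.1, 79.8, 80.5 and 82.3 CPM with vehicle and 79, 81.4, 78 and 76.5 CPM with TGF-β1. The treated cultures lay within the range of the controls, at 78.9 ± 4 and 78.8 ± 2.06 CPM (SD, n = 4), and the log2 fold change was -0.0034 (SE 0.032, edgeR adjusted p = 0.949). Its 95% interval, -0.069 to 0.062, lies below the intervals of the 7 members that rose and above those of *P4ha2* and *P3h2*.

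**Figure D3:**
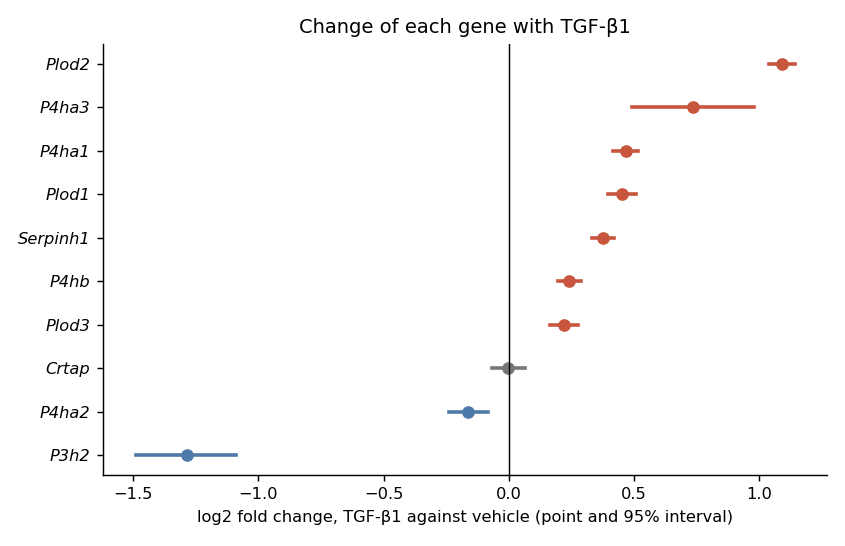
Log2 fold change of each gene (x axis, TGF-β1 against vehicle) with its 95% interval from edgeR (line), ordered by size, with genes called as higher in red, as lower in blue and not called in grey. *Plod2* (1.09) and *P3h2* (-1.29) stand at the ends, the low-count genes *P4ha3* and *P3h2* have the widest intervals, and that of *Crtap* spans 0.

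Overlaps between gene models bear on 3 of the genes, since the strand setting of the counting is not given in the sources used here. On the opposite strand, *Gm4524* shares 28.4% of the exon bases of *P3h2*, *Znhit1* 11.7% of those of *Plod3* and *Gm38391* 6.42% of those of *Plod2*. *Gm4524* averaged 0.555 CPM with vehicle and 0.319 CPM with TGF-β1, beside 7.2 and 2.95 CPM for *P3h2*. *Znhit1* was at 20.5 and 21.1 CPM and *Gm38391* at 3.61 and 5.46 CPM, and how many reads of a shared stretch belong to each gene cannot be told apart. The other 7 genes had no exon overlap with another gene. Stretches of 50 bases shared with other genes on the same strand made up at most 0.626% of any of the 10 genes. Gene counts do not separate splice forms, such as those of *Plod2*, which has 2 annotated protein-coding transcripts.

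Levels of different genes were compared per kilobase of exon, with the joined exon length described above. In the vehicle cultures the order was *Serpinh1* (258 CPM per kb), *P4hb* (178), *P4ha1* (46.4), *Crtap* (44.5), *Plod3* (22), *P4ha2* (15.8), *Plod2* (15.7), *Plod1* (11.8), *P3h2* (1.93) and *P4ha3* (0.77), each a mean of 4 cultures in CPM per kb. The ranges of neighbours overlapped for *P4ha1* and *Crtap* and for *P4ha2* and *Plod2*, and not for the other neighbours. *Serpinh1* and *P4hb* were at the 99.8th and 99.6th percentile of all genes tested, whereas *P3h2* and *P4ha3* were at the 36.4th and 31.4th. With TGF-β1 the first 4 genes kept their places. *Plod2* moved from the 7th to the 5th place at 33.5 CPM per kb, above *Plod3* at 25.7 and *Plod1* at 16.1 CPM per kb, and *P4ha2* moved to the 8th place at 14.1 CPM per kb. *P4ha3* (1.28 CPM per kb) and *P3h2* (0.792 CPM per kb) changed order at the bottom.

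Since the substrates rose as well, each gene was also set against them. *Col1a1*, *Col1a2* and *Col3a1*, which encode the chains of collagens I and III, summed to 4368 to 4596 CPM with vehicle and 6452 to 6721 CPM with TGF-β1, a log2 difference of 0.56 between the means of 4 cultures. Per 1000 counts of these collagen genes, 8 of the 10 genes were lower with TGF-β1 with no overlap, *Plod2* was higher with no overlap, and *P4ha3* overlapped. Over all genes tested, 70.5% were lower without overlap on this scale and 2.62% higher, because the denominator itself rose. The fall of most members is thus as common as elsewhere, and *Plod2* is among few genes that were higher. *Plod2* went from 18.8 ± 0.224 to 27.3 ± 0.762 per 1000 collagen counts (SD, n = 4), a log2 difference of 0.54. *P4ha1* and *Plod1* nearly kept pace with the collagen genes, from 42.4 ± 0.975 to 39.8 ± 0.984 and from 17.7 ± 0.744 to 16.5 ± 0.164 per 1000 collagen counts, with log2 differences of -0.089 and -0.10. *Serpinh1* went from 139.8 ± 2.42 to 123 ± 2.11 (log2 difference -0.18), *P4hb* from 113 ± 1.36 to 90.6 ± 2.21 (-0.31) and *Plod3* from 22.1 ± 0.202 to 17.5 ± 0.659 (-0.34), all per 1000 collagen counts. *Crtap* went from 17.5 ± 0.535 to 11.9 ± 0.218 (log2 difference -0.56), *P4ha2* from 21.9 ± 0.787 to 13.3 ± 0.884 (-0.72) and *P3h2* from 1.6 ± 0.105 to 0.445 ± 0.0205 (-1.84). *P4ha3* was at 0.497 to 0.57 with vehicle and 0.561 to 0.683 with TGF-β1 per 1000 collagen counts. These ratios share a denominator, so their order is that of the changes in CPM, and they are a description with no test.

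**Figure D4:**
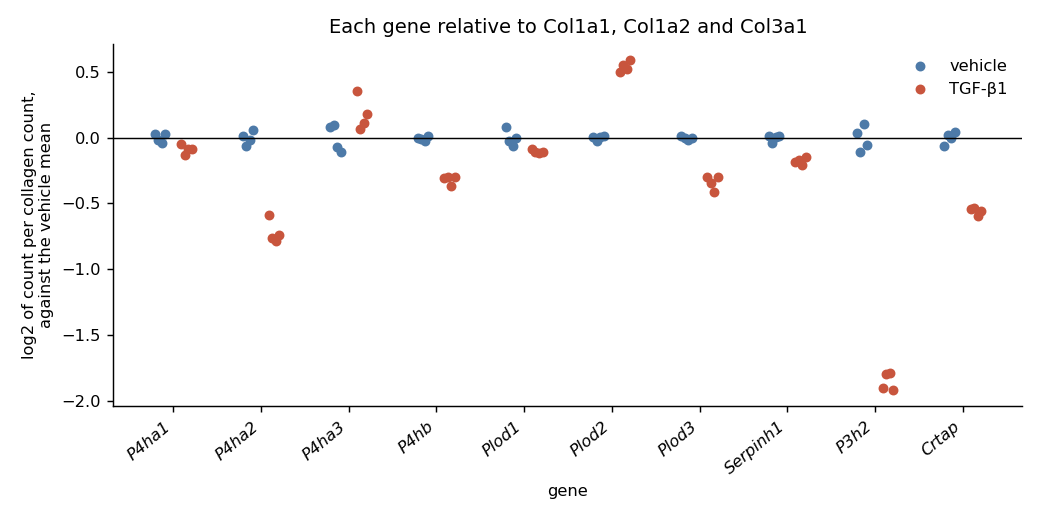
Log2 of each gene's count per count of *Col1a1*, *Col1a2* and *Col3a1* (y axis), relative to the mean of the vehicle cultures (line at 0), with each point 1 culture. The TGF-β1 cultures (red) lie above all vehicle cultures (blue) for *Plod2* (mean 0.54), overlap them for *P4ha3* and lie below for the other 8 genes, down to -1.84 for *P3h2*.

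The other genes of collagen folding and export were read from the same fit. This list and those below were chosen with earlier results of these data known, so their counts are a description. Of 16 tested folding partners, 13 were higher, 0 were lower and 3 were not called, with a median log2 fold change of 0.18 (all genes tested: -0.011, with 20.9% called as higher). Over the alternative settings 10 to 13 were called as higher and 0 as lower. *P3h1*, the catalytic partner of *Crtap*, rose from 44.9 ± 1.82 to 62.3 ± 1.59 CPM (SD, n = 4; log2 fold change 0.47, SE 0.035, edgeR adjusted p = 1.64e-15). *Ppib*, which encodes cyclophilin B, the third protein of that complex, rose from 44.9 ± 2.91 to 51.8 ± 1.49 CPM (log2 fold change 0.20, SE 0.039, edgeR adjusted p = 2.61e-05). The genes of this complex were therefore split, with *P3h1* and *Ppib* called as higher and *Crtap* not called. *P3h3*, a further member of the prolyl 3-hydroxylase family, had overlapping groups and a log2 fold change of 0.086 (SE 0.035, edgeR adjusted p = 0.0415), a call that was lost in 8 of 15 alternatives, and *P3h4*, which encodes a protein without catalytic activity that associates with lysyl hydroxylase 1, was at 67.9 ± 2.14 and 67.5 ± 4.05 CPM (SD, n = 4; edgeR adjusted p = 0.85). *P3h2* was the 1 prolyl 3-hydroxylase gene called as lower.

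Other partners are known for acting with lysyl hydroxylases or on their product. *Fkbp10* encodes a prolyl isomerase known to act with lysyl hydroxylase 2. It rose from 136 ± 4.54 to 166 ± 2.87 CPM (SD, n = 4; log2 fold change 0.28, edgeR adjusted p = 2.61e-12). *Colgalt1*, which encodes the enzyme that adds galactose to hydroxylysine, rose from 102 ± 2.17 to 144 ± 4.51 CPM (log2 fold change 0.50, edgeR adjusted p = 1.27e-19). Its paralog *Colgalt2* was at 2.24 ± 0.334 and 1.98 ± 0.198 CPM and was not called (edgeR adjusted p = 0.356). The largest changes among the partners were those of *Fkbp11*, a further prolyl isomerase (log2 fold change 0.88), *Tmem38b*, an ion channel of the endoplasmic reticulum (0.69), and *Sparc*, a secreted collagen-binding protein (0.51). *Mia3*, a collagen export gene, was the remaining gene not called, at 0.0067.

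General chaperones and oxidoreductases of the endoplasmic reticulum were mostly called as higher. Of 22 tested, 20 were higher, 1 was lower (*Sil1*, log2 fold change -0.25) and 1 was not called (*Sdf2l1*), with a median of 0.16, beside 20.9% higher, 20.3% lower and a median of -0.011 among all genes tested. The largest changes were in *Pdia5*, a relative of *P4hb* (0.79), *Ero1l*, which reoxidises protein disulfide isomerase (0.50), and *Erp29* (0.36). Several of the list are abundant, and small changes passed the test, as for *Calr* (896 and 967 CPM, log2 fold change 0.11). The share called among genes of like level was not computed.

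Enzymes that need the same cofactors but act on other substrates were called at a share close to that of all genes. Of 14 other 2-oxoglutarate hydroxylases, 4 were higher (*Egln1*, *Jmjd4*, *Jmjd6* and *Ogfod1*), 3 were lower (*Asph*, *Egln2* and *Egln3*) and 7 were not called, beside 20.9% higher and 20.3% lower among all genes tested, with a median log2 fold change of -0.011 for the list and for all genes. *Asph*, an aspartyl and asparaginyl hydroxylase of the endoplasmic reticulum, fell from 175 ± 1.44 to 124 ± 3.31 CPM (SD, n = 4; log2 fold change -0.50, edgeR adjusted p = 8.44e-21). *Egln1*, the main oxygen sensor of the hypoxia-inducible factor pathway, rose from 54 ± 2.12 to 73.6 ± 1.17 CPM (log2 fold change 0.45, edgeR adjusted p = 1.07e-15). *Jmjd7* had a log2 fold change of -0.38 from under 1 CPM and was not called (edgeR adjusted p = 0.325). With each culture left out, this log2 fold change ran from -0.498 to -0.197.

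*P4ha1*, *P4ha2* and *Plod2* are known targets of hypoxia-inducible factor, so other known targets were read beside them. Of 18 tested, 13 were higher and 5 were lower (*Ndrg1*, *Adm*, *Car9*, *Ddit4* and *Egln3*), with a median log2 fold change of 0.33, beside 20.9% higher and 20.3% lower among all genes. The largest changes were in *Hk2*, a glycolytic enzyme (36 ± 2.53 to 107 ± 5.34 CPM; log2 fold change 1.57), *Ndrg1* (136 ± 1.53 to 47.8 ± 3.28 CPM; -1.5) and *Bhlhe40*, a transcription factor (83.2 ± 2.62 to 181 ± 3.64 CPM; 1.12). Most of the list was thus higher. *P4ha1* and *Plod2* were higher, and *P4ha2* was lower with overlapping groups. A part of hypoxia-inducible factor in these changes was not tested. *Egln3* is counted here and among the other hydroxylases. Oxygen was not measured in these data.

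Of the substrates, 8 of 11 tested fibrillar collagen chain genes were higher, 1 was lower (*Col11a2*, log2 fold change -0.26) and *Col2a1* and *Col24a1* were not called, with a median of 0.48, beside 20.9% higher and 20.3% lower among all genes. *Col1a1* rose from 1587 ± 36.8 to 2525 ± 49.5 CPM (SD, n = 4; log2 fold change 0.67), *Col1a2* from 2121 ± 44.1 to 2852 ± 62.7 CPM (0.43) and *Col3a1* from 801 ± 27.3 to 1248 ± 41 CPM (0.64). The largest changes were those of the minor fibrillar chains *Col5a3* (2.57), *Col11a1* (1.5) and *Col5a2* (1.40). Of 6 type IV collagen genes, which encode the network of basement membranes, *Col4a1*, *Col4a2* and *Col4a5* were higher (0.18, 0.37 and 0.38). *Col4a3*, *Col4a4* and *Col4a6* were not called, the last at 0.26 (0.127 to 0.388 with each culture left out). The median of these type IV genes was 0.22, and their calls stand beside the same shares of all genes. *P3h2*, which acts on type IV collagen, was lower in the same cultures.

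**Figure D5:**
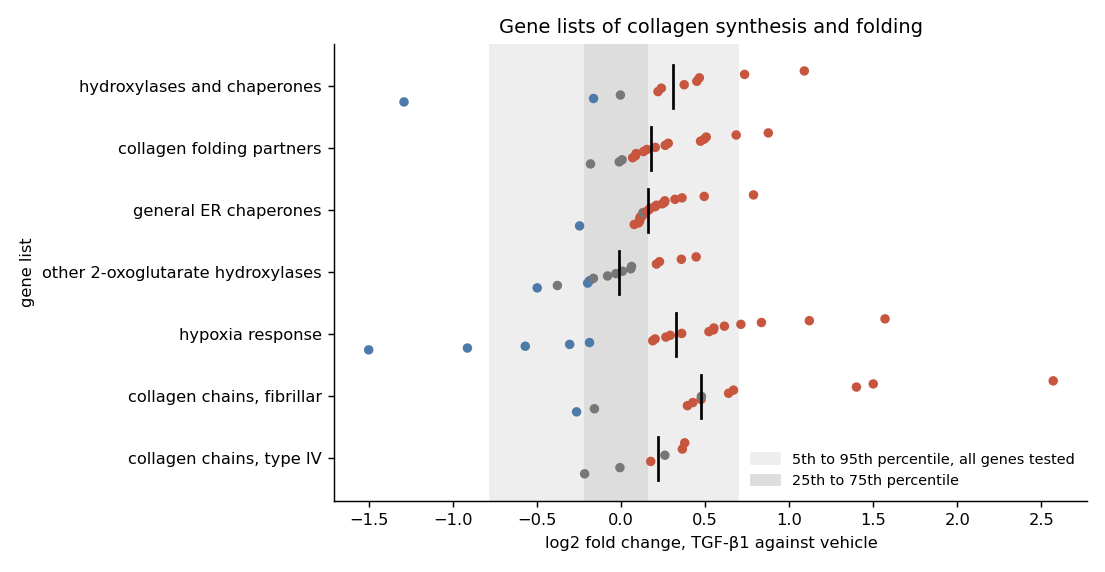
Log2 fold change (x axis, TGF-β1 against vehicle) of every tested gene of the 7 lists (rows), each point 1 gene, red where called as higher, blue where called as lower and grey where not called, with a bar at the median of the list. Light and dark bands give the 5th to 95th and 25th to 75th percentiles of all 22544 genes tested, shown for the scale of single genes. List medians run from -0.011 for the other hydroxylases to 0.48 for the fibrillar collagen chains.

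Only transcripts were measured, so enzyme levels, hydroxylation and cross-links were not. The counts per culture behind the main changes ran from 3795 to 8565 for *Plod2* and from 8576 to 12424 for *P4ha1*, against 105 to 207 for *P4ha3* and 129 to 375 for *P3h2*, and the standard errors of their log2 fold changes were 0.027, 0.025, 0.12 and 0.0996 in the same order.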

How the data were processed

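Deposited counts of reads per gene for 8 cultures (4 vehicle, 4 TGF-β1) were analysed, unnormalised and as 1 library per culture. RNA was prepared with the Illumina stranded total RNA kit. According to the study's methods and the submitters' processing notes, the authors aligned reads to mm10 with STAR 2.7.5c, removed duplicates with SAMtools 1.15 and counted with featureCounts 2.0.3. The annotation release, strand setting and handling of read pairs are not given in the sources used here. Between 68.5% and 70.2% of counts from 1 to 20 were even, so counts may exceed fragments. Names, positions and exon lengths came from GENCODE M21 on GRCm38, which named 54409 of the 54532 identifiers, and promoters came from RefSeq.

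Counts were tested with edgeR 4.0.16 in R 4.3.3 (filterByExpr, TMM, robust quasi-likelihood test, no covariate), and p-values were adjusted by Benjamini-Hochberg across the 22544 genes that passed the filter (threshold 0.05). With totals of 45255235 to 47651397, 3 counts correspond to 0.0631 to 0.0658 CPM. Ratios within a family were compared by exact permutation of the cultures. The code was tested on simulated data. No 2 libraries of a group agreed within sampling noise on the counts as given (chi-square per degree of freedom 2.25 to 3.93). With counts halved, these values ran from 1.14 (vehicle cultures 3 and 4) to 2.1. Vehicle cultures 1 and 2 were then at 1.57, and pairs of either with culture 3 or 4 at 1.86 to 2.1. The second principal component split the vehicle cultures in the same way. TGF-β1 cultures 5 and 7 were at 1.28 with counts halved, and the other TGF-β1 pairs at 1.48 to 2.1. The p-values take the cultures of a group as independent, and whether some share an origin was not tested.

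The members and lists were chosen with earlier results of these data known. All members are named, and of every other list the 3 largest absolute log2 fold changes and 10 further collagen-related genes. Further genes were named because a count was 5 or fewer or as cell type markers, the former after their values were seen. Alternatives were DESeq2 1.42.0, other size factors, other filters, halved counts and each culture left out.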

Additional observations from a re-analysis of the deposited data

Results flagged for a closer look

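Of 56 groups of 4 values examined, 3 held a culture whose gap to its nearest neighbour exceeded the 95% critical value of Dixon's test, where chance at 1 in 20 would give 2.8. *P4ha2* was at 96.6 CPM in TGF-β1 culture 5, with the nearest treated culture at 86.3 CPM. *P4ha3* was at 4.52 CPM in the same culture, with the nearest at 3.89 CPM. Without culture 5, the log2 fold change of *P4ha2* was -0.21 and that of *P4ha3* 0.67, both still past the edgeR threshold. *P4hb* was at 87.4 per 1000 collagen counts in TGF-β1 culture 7, with the nearest at 91.3.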

How the results depend on the processing

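The number of the 10 genes called, 7 higher and 2 lower, was the same under every alternative run: DESeq2, DESeq2 size factors, library totals, upper-quartile factors, looser and stricter filters (1 count in some culture, 10 counts in all), counts halved and rounded up, and each culture left out. All genes called ranged from 8559 (without TGF-β1 culture 6) to 9311 (upper-quartile factors), beside 9303 in the main test. Among the 10 genes, the sign of *Crtap* alone depended on the setting, and it was not called under any of these. Its log2 fold change was 0.0022 with DESeq2 and 0.0011 with DESeq2 size factors in edgeR, against -0.0034 in the main test. With each culture left out it ran from -0.033 to 0.018, with edgeR adjusted p from 0.463 to 0.967. The log2 fold change of *P4ha2* ran from -0.21 to -0.14 with each culture left out (edgeR adjusted p from 3.03e-07 to 0.0112). No paired analysis was possible because the labels number the vehicle cultures 1 to 4 and the TGF-β1 cultures 5 to 8, so the groups share no replicate number, although the study's methods describe isolates given both treatments. Among the other lists, folding partners called as higher numbered 13 in the main test and 10 to 13 over the alternatives (11 with library totals, upper-quartile factors or the looser filter, 12 with DESeq2, 10 without TGF-β1 culture 6), general chaperones called as higher 20 and 18 to 21, and other hydroxylases called as lower 3 and 3 to 4. Of 15 alternatives, the call of *Mia2* was lost in 9, *P3h3* in 8, *Erp44* in 5, *Ero1lb* in 3 and *Fkbp7* in 2, while *Ogfod2* passed the threshold in 5 and *Sdf2l1* in 4. Signs also turned for genes not called: *Mia3* was at -0.0043 with library totals, and with each culture left out *Mia3* ran from -0.0036 to 0.018, *P3h4* from -0.0465 to 0.0202, *Riox1* from -0.0355 to 0.0554 (-0.0023 to 0.014 with the other settings), *Riox2* from -0.008 to 0.112 and *Col4a4* from -0.062 to 0.056. Depth limited *P4ha3* and *P3h2* most, with 105 to 375 counts per culture. Median log2 fold changes of all genes lay between -0.022 and -0.0015 over these settings.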
